A study of Mus musculus with 4 samples.

Results

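Splicing factors of the SRSF, hnRNP and snRNP families were followed in bulk RNA sequencing of the mouse stomach. The members are the gene rows whose name begins with *Srsf*, *Hnrnp* or *Snrp* and holds no hyphen. There are 44 of them among 46095 rows of the count table, with 11 *Srsf*, 20 *Hnrnp* and 13 *Snrp* rows. Of these, 42 had enough reads to be tested, and all 42 would also have passed the filter on low counts in either genotype alone. GENCODE lists 43 as protein-coding, and *Snrpert* as a processed pseudogene.

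The animals were on the C57BL/6 background and 12 weeks old. Transgenic animals (*Atp4b-cre;MycOE*, here MYC-KI) carried 1 floxed allele of a human *c-Myc* transgene (*Myc* fl/+) and a Cre recombinase driven by the *Atp4b* promoter, which is active in the parietal cell lineage. Littermates with the floxed allele and no Cre (*Myc* fl/fl) served as wild type (WT), so both genotypes carry the transgene and only MYC-KI switches it on. The series' design text speaks of 3 samples per genotype, and 2 of each were analysed here. The labels do not say that these are separate animals. The WT samples differ in sex-linked transcripts (below) and so came from different animals, while for the MYC-KI pair the spread behind the p-values may be technical. RNA came from gastric tissue, and the driver is therefore active in only some of the cells measured.

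SR proteins, encoded by *Srsf* genes, bind exons and help to bring the splicing machinery to nearby splice sites. The hnRNPs coat nascent RNA and often block or redirect splice site choice, and several also act in RNA export, stability and translation. *Snrp* genes encode proteins of the small nuclear ribonucleoproteins (snRNPs), in which a ring of Sm proteins is built on each spliceosomal RNA. MYC is a transcription factor that binds E-box sequences, and in cultured and tumour cells it is known for raising transcripts of several splicing factors and of PRMT5, which methylates Sm proteins.

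E-box content is shown first, because CACGTG is the motif that MYC with MAX binds best. RefSeq promoters (GRCm38.p6) were read over the 250 bases before each start, and 39 of the 44 members had an entry. CACGTG reads the same on both strands, so a single search covers both. It was present in at least 1 promoter of 4 of the 39 member genes (10.3%) and of 1854 of 27025 genes (6.86%). Counted by promoter, it was in 5 of 55 member promoters (9.09%) and in 1978 of 32851 overall (6.02%). The 4 genes were *Hnrnpa3*, *Hnrnpd*, *Hnrnpf* and *Snrpa*, and none of them is among the 7 members called higher below that had an entry. *Snrpd1*, the other called member, had none and was not read. A promoter of *Snrpa* is printed because it holds 2 copies, in capitals, 73 and 32 bases before the start. Those of *Hnrnpa1* and *Snrpf*, the called members with the largest fold change in their families, hold none. A match is a description of letters in this window and not a binding site.
Snrpa promoter, chr7:27196272-27196521, minus strand: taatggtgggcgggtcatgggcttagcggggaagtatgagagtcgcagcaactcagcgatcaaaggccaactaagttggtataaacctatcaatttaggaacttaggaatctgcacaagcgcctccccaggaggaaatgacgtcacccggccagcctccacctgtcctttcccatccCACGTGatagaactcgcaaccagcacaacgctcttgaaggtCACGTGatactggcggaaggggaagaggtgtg
Hnrnpa1 promoter, chr15:103240147-103240396, plus strand: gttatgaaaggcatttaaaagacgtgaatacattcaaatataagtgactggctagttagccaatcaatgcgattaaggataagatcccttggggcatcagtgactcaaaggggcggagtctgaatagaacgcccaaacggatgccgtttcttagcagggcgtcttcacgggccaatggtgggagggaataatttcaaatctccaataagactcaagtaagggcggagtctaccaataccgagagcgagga
Snrpf promoter, chr10:93589659-93589908, minus strand: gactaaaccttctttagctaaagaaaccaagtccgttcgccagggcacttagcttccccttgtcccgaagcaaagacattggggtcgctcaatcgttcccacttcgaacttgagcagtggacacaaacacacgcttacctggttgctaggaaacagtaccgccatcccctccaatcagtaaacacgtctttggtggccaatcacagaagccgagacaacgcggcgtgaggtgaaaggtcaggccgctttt

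In the deposited table the names and the MYC-KI counts are out of register, and every value here uses MYC-KI counts assigned in row order to the names sorted by character code. This re-sorting raised Pearson's r of the genotype means across genes, which are not independent replicates, from 0.524 to 0.985. In a window of 61 rows around each member, the alignment without any further shift gave the highest correlation for 44 of 44 members, with r of 0.978 to 0.988. No member stands at the same row in both orders, so each MYC-KI value below rests on the re-sorting. With names and counts left as deposited, 12 members would be called higher and 20 lower. Over all 22083 genes tested in that setting, 9422 would be called higher and 9158 lower. Samples held 30260305 to 41463647 counts. The WT samples differ in sex-linked transcripts, since WT replicate 2 had 17846 *Xist* and 5 *Ddx3y* counts while the other samples had at most 201 *Xist* and at least 1861 *Ddx3y* counts. Mouse *Myc* was read 1062 and 759 times in WT, and 735 and 1091 times in MYC-KI (log2 fold change -0.35, SE 0.14, adjusted p = 0.163). The table names no human transgene row, so the table does not check the genotype label.

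Several splicing factor transcripts were higher in MYC-KI stomachs, and none was called lower. Of the 42 tested members 8 were called higher and 0 lower by edgeR's quasi-likelihood test, where a call needs an adjusted p below 0.05 and a change of more than 1.5-fold. Over all 17643 tested genes 5.65% were called higher and 5.08% lower. Those 8 were *Snrpf*, *Snrpg*, *Snrpd1*, *Snrpb2* and *Snrpa1* of the snRNPs, *Hnrnpa1* and *Hnrnpa0* of the hnRNPs, and *Srsf7* of the SR proteins. Members are well expressed, and where the mean log2 CPM reached 4 or more the share of tested genes called higher was 8.22%, against 7 of the 38 members at that level.

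Much of the difference was small and spread over the families. Without the fold threshold, 14 of 42 members were higher at an adjusted p under 0.05, against 6.98% of all tested genes. Both MYC-KI samples lay above both WT samples in 36 of 42 members, against 33.3% of tested genes. The background shares of this paragraph are over all tested genes, and not over genes as well expressed as the members. The fitted log2 fold change was above 0 in 42 of 42 members and in 50.9% of tested genes, although with DESeq2 size factors *Hnrnpul2* falls just below 0 at -0.01. No member was therefore lower at an unadjusted p under 0.05 either. Its median was 0.46 over the members and 0.01 over all tested genes. With library size alone as the scale the median of all genes moved to 0.24 and that of the members to 0.68. On that scale 24 members were called higher, as were 2272 of all 17643 tested genes (996 in the main fit). Such a change of scale shifts all genes alike, so the gap of 0.44 between the medians could not change with it. In raw terms, members took 0.441% and 0.452% of all counts in the WT samples and 0.699% and 0.645% in the MYC-KI samples.

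The calls rest on few samples. Without WT replicate 1 or without WT replicate 2 the calls were lost over the whole table, members included. The median log2 fold change of the members was then 0.42 and 0.44. Without MYC-KI replicate 1 fewer members were called, and without MYC-KI replicate 2 more, as was also so for all tested genes. In these fits the median log2 fold change of the members was 0.41 and 0.46, and each lost some of the 8 calls. For the 8 called members the log2 fold change stayed between 0.56 and 1.19 in all fits that left out a sample.

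**Figure D1:**
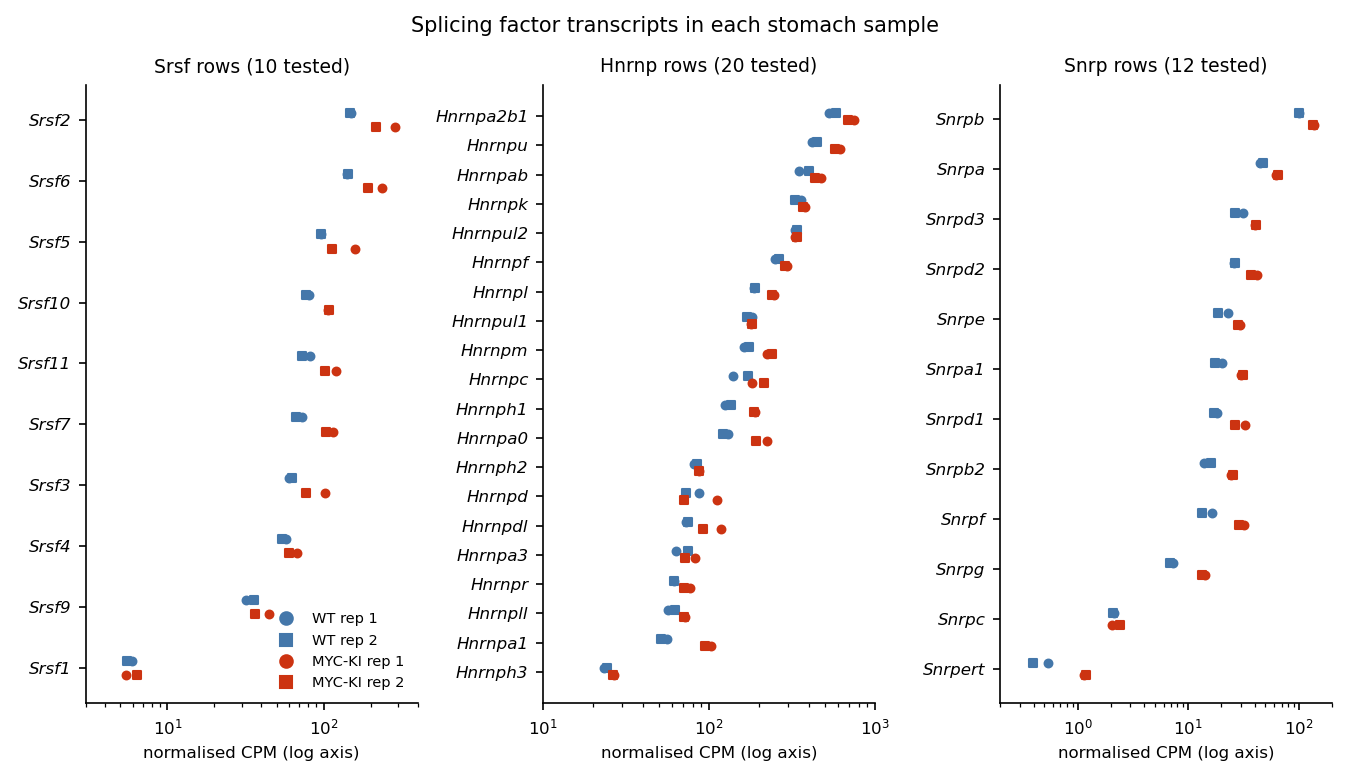
Normalised CPM (reads of a gene relative to the library total, log axis) of the 42 tested members, in a panel for each family, with 1 point per sample, WT in blue and MYC-KI in red. The red points lie to the right of both blue points in 36 of 42 rows, and the largest gaps are in rows such as *Snrpert*, *Snrpf*, *Snrpg* and *Hnrnpa1*.

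The *Snrp* family had the highest median fold change and the most calls, though differences between families were not tested. Of its 12 tested rows 5 were called higher (5.65% over all genes and 8.22% over well expressed ones), 8 had an adjusted p under 0.05 and the median log2 fold change was 0.64, with a range of 0.09 to 1.32. Summed over the family, the normalised level was 303.7 and 293.2 CPM in WT and 448.1 and 434.5 CPM in MYC-KI, a ratio of the genotype means of 1.48. These levels are CPM after TMM scaling, and they compare samples and not genes.

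*Snrpf* encodes Sm protein F. It had 16.4 and 13.4 CPM in WT and 32.0 and 29.1 CPM in MYC-KI. Both MYC-KI values were above both WT values, and the log2 fold change of 1.04 (SE 0.16, adjusted p = 0.0316) was the only member's above 1 among the calls. *Snrpg*, which encodes the neighbouring protein G of the ring, had 7.33 and 6.85 CPM in WT and 14.1 and 13.3 CPM in MYC-KI. It also did not overlap between genotypes, with a log2 fold change of 0.95 (SE 0.16, adjusted p = 0.0374). *Snrpd1*, for Sm protein D1, had 18.1 and 17.03 CPM in WT and 32.6 and 26.5 CPM in MYC-KI. The fitted log2 fold change was 0.75 (SE 0.15, adjusted p = 0.0493), close to the threshold, and it is not called with DESeq2 size factors.

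The remaining Sm proteins had smaller differences. *Snrpb*, the most abundant *Snrp* row, encodes Sm proteins B and B' and had 100.5 and 100.4 CPM in WT and 138.6 and 134.4 CPM in MYC-KI. Its log2 fold change of 0.44 (SE 0.07, adjusted p = 0.0369) was clear of the replicate spread but under the fold threshold. *Snrpd3*, for Sm protein D3, had 31.4 and 26.6 CPM in WT and 39.8 and 41.2 CPM in MYC-KI, without overlap. On the log2 scale the fold change was 0.48 (SE 0.12, adjusted p = 0.0729). *Snrpd2* and *Snrpe* complete the ring, and were named after their values were seen, with log2 fold changes of 0.57 (adjusted p = 0.0471) and 0.49 (adjusted p = 0.102). None of the 7 overlapped between genotypes, where 33.3% of all tested genes had both MYC-KI samples above both WT samples.

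The Sm ring holds 1 copy of each of these proteins, so their transcript levels were also set side by side per kilobase of exon. In WT these ranged from 4.51 CPM per kb for *Snrpg* to 50.8 CPM per kb for *Snrpb*. In MYC-KI the same rows had 8.73 and 69.1 CPM per kb. *Snrpf* went from 17.3 to 35.5 CPM per kb, and *Snrpd1* from 8.57 to 14.4 CPM per kb. The row with the highest level per length thus had the smallest fold change of the ring, and the row with the lowest level had the second largest. This order did not hold throughout, since *Snrpf*, at the second highest WT level, had the largest fold change. *Snrpd3*, at the second lowest WT level (8.42 CPM per kb), had the second smallest fold change. Exon lengths are the union of all annotated exons and exceed most single transcripts, which lowers the value per kb of genes with many isoforms. *Snrpf* shares 735 of its 861 exon bases with other genes (below), so its value per kb also depends on how shared reads were counted.

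**Figure D2:**
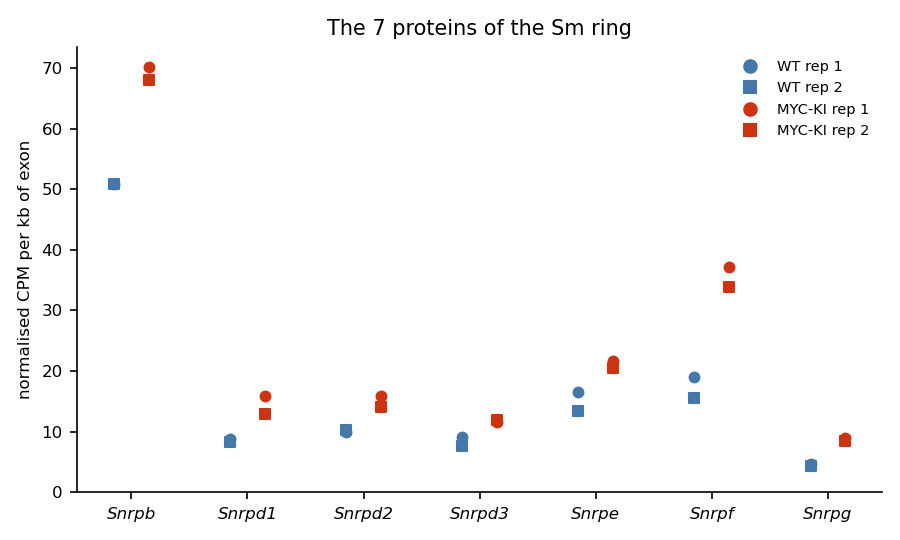
Normalised CPM per kb of exon (linear axis from 0) of the 7 Sm ring genes, with 1 point per sample, WT in blue and MYC-KI in red. All 7 genes are higher in both MYC-KI samples, and *Snrpb* stands above the others in both genotypes.

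Proteins particular to U1 and U2 snRNPs account for 4 further rows of the family. *Snrpa1*, which encodes the U2 protein A', had 20.2 and 17.3 CPM in WT and 30.4 and 31.5 CPM in MYC-KI (log2 fold change 0.72, SE 0.13, adjusted p = 0.0410). *Snrpb2*, for its U2 partner B'', had 13.8 and 16.1 CPM in WT and 24.2 and 25.3 CPM in MYC-KI (log2 fold change 0.73, SE 0.14, adjusted p = 0.0461). These partners, which bind U2 RNA together, thus rose by a similar amount. *Snrpa*, for the U1 protein A, had 44.4 and 47.9 CPM in WT and 61.7 and 64.6 CPM in MYC-KI. A log2 fold change of 0.45 (SE 0.09, adjusted p = 0.0435) was under the fold threshold. *Snrpc*, for the U1 protein C and named after its values were seen, was rare, with 72 and 58 reads counted in WT and 70 and 109 in MYC-KI. Its groups overlapped, and the 95% interval of its log2 fold change ran from -0.73 to 0.92, which spans 0.

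*Snrpn*, an imprinted Sm protein gene mostly active in brain, had 0 counts in all 4 samples, which allows up to 3 counts per sample as far as counting error goes. *Snurf*, with which it shares a transcript and exon bases, was also at 0. *Ddx39b*, a splicing helicase gene of the partner lists named after its values were seen, had 1 count in WT replicate 1 and 0 in the other samples, so a 0 in this table need not mean that a gene is silent. The pseudogene row *Snrpert*, named after its values were seen, was read 18 and 11 times in WT, and 39 and 53 times in MYC-KI. Its log2 fold change of 1.32 (SE 0.42, adjusted p = 0.110) was the largest of all members. Reads of a processed pseudogene can be split with near-identical copies, so its value is uncertain.

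Overlapping genes touch 19 of the 44 members, 2 of them called. *Snrpf* shares 735 of its 861 exon bases with *4933408J17Rik* and *Ccdc38*. These rows had 7 and 11, and 7 and 17 counts in WT, and 26 and 38, and 28 and 37 counts in MYC-KI, far fewer than *Snrpf*. *Snrpa1* shares 148 bases with *Gm45213*. Whether counting used strand is not given in the sources used here.

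The *Hnrnp* family had the highest summed level and the lowest median fold change of the 3 families. Of its 20 rows 2 were called higher, which is near the background of 5.65% over all genes and 8.22% over well expressed ones. An adjusted p under 0.05 was reached by 4, with a median log2 fold change of 0.27 and a range of 0.00 to 0.87. Its summed level was 3668 and 3841 CPM in WT and 4771 and 4536 CPM in MYC-KI, a ratio of the genotype means of 1.24.

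*Hnrnpa1* encodes a shuttling hnRNP that represses exon inclusion by binding silencer elements. It had 55.8 and 51.7 CPM in WT and 102 and 94.5 CPM in MYC-KI. The gap was many times the spread within either genotype, with a log2 fold change of 0.87 (SE 0.09, adjusted p = 0.0201), the smallest adjusted p among the members. *Hnrnpa0*, a relative that binds AU-rich elements in messenger RNA, had 131 and 122 CPM in WT and 226 and 191 CPM in MYC-KI. The rise was 0.72 on the log2 scale (SE 0.12, adjusted p = 0.0344). Without MYC-KI replicate 1 the log2 fold changes were 0.81 for *Hnrnpa1* and 0.60 for *Hnrnpa0*.

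The 3 members of the family with the highest CPM, which is not corrected for gene length, were not called. *Hnrnpa2b1*, of the same A/B group, had 532 and 581 CPM in WT and 748 and 687 CPM in MYC-KI (log2 fold change 0.37, SE 0.10, adjusted p = 0.0870). *Hnrnpu*, which encodes a nuclear scaffold protein, had 419 and 450.4 CPM in WT and 615 and 577 CPM in MYC-KI (log2 fold change 0.46, SE 0.09, adjusted p = 0.0504). *Hnrnpab* had 348 and 403 CPM in WT and 477 and 434 CPM in MYC-KI (log2 fold change 0.28, SE 0.12, adjusted p = 0.178). In all 3 both MYC-KI values were above both WT values, as in 33.3% of all tested genes.

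At the other end of the family, values were nearly level. *Hnrnpul2*, named with the next row after their values were seen, had 331 and 340.3 CPM in WT and 331 and 342 CPM in MYC-KI. Its log2 fold change was 0.00, with a 95% interval of -0.21 to 0.22, which leaves out a change as large as the fold threshold. *Hnrnpul1*, its close relative, had a log2 fold change of 0.04 with an interval of -0.19 to 0.26. Both encode hnRNP U-like proteins, and *Hnrnpu* itself had 0.46. *Hnrnpd*, which encodes the RNA decay factor AUF1 and was also named after its values were seen, had 87.5 and 72.5 CPM in WT and 112 and 71.1 CPM in MYC-KI. Its MYC-KI samples stood farther apart than those of any other *Hnrnp* row, by 0.65 on the log2 scale, and the genotypes overlapped.

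The *Srsf* family had the largest median gap between the MYC-KI samples. Of its 10 tested rows 1 was called higher, near the 5.65% of all genes and 8.22% of well expressed ones. An adjusted p under 0.05 was reached by 2, with a median log2 fold change of 0.51 and a range of 0.04 to 0.76. Its summed level was 779 and 764 CPM in WT and 1243 and 1019 CPM in MYC-KI, a ratio of the genotype means of 1.46. MYC-KI replicate 1 was above replicate 2 in 8 of 10 rows, by a median of 0.26 on the log2 scale, against 0.04 in the *Hnrnp* and 0 in the *Snrp* rows. The median gap between the WT samples in the *Srsf* rows was 0.05.

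*Srsf7*, an SR protein with a zinc knuckle that also acts in RNA export, was the only member of this family to pass. It had 72.8 and 66.6 CPM in WT and 116 and 103 CPM in MYC-KI, with a log2 fold change of 0.65 (SE 0.10, adjusted p = 0.0335). The 3 most abundant rows were higher in both MYC-KI samples, as were 33.3% of all tested genes, and were not called. *Srsf2*, which encodes SC35, had 151 and 148 CPM in WT and 287 and 217 CPM in MYC-KI. Its fold change was larger than that of *Srsf7*, at 0.76 on the log2 scale (SE 0.16, adjusted p = 0.0505). *Srsf2* is called with the DESeq2 Wald test and when the filter on low counts is changed, and 748 of its exon bases are shared with *Mettl23* and *Mfsd11*.

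*Srsf6* encodes the SR protein SRp55. It had 142 and 144 CPM in WT and 237 and 193 CPM in MYC-KI, with a log2 fold change of 0.59 (SE 0.13, adjusted p = 0.0539). Like *Srsf2*, it is called when the filter on low counts is changed. *Srsf5*, for SRp40, had 96.0 and 97.0 CPM in WT and 159 and 114 CPM in MYC-KI. Its gap between MYC-KI samples, 0.48 on the log2 scale, was the widest of the family, and its log2 fold change was 0.50 (SE 0.18, adjusted p = 0.135). That fold change was 0.24 without MYC-KI replicate 1 and 0.72 without MYC-KI replicate 2. *Srsf1*, the founding SR protein gene, was named after its values were seen. It was rare in this table, with WT counts of 200 and 154 and MYC-KI counts of 183 and 286. The genotypes overlapped in CPM, and the interval of its log2 fold change, -0.56 to 0.64, spans both no change and a change past the threshold. *Srsf12*, named because it was left out by the filter, had 3 to 8 counts per sample and was not tested.

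**Figure D3:**
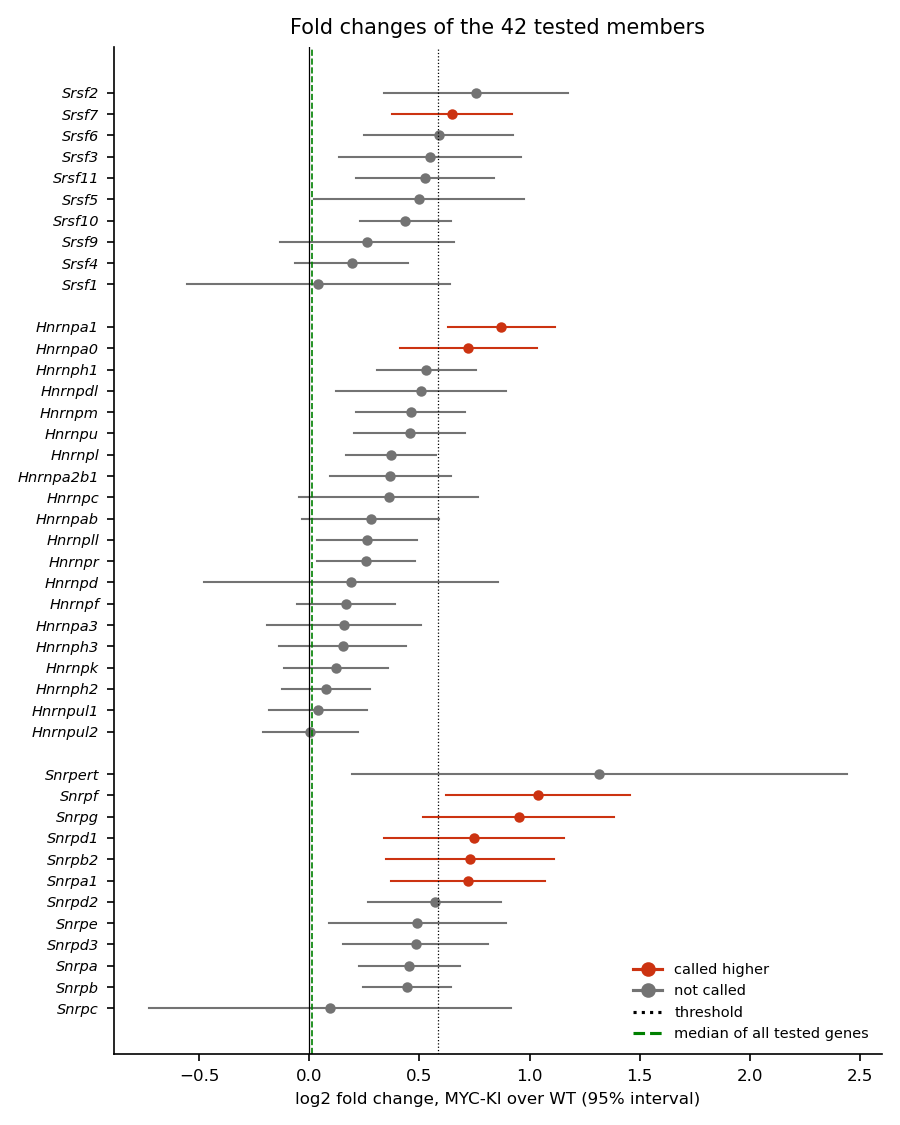
Log2 fold change of MYC-KI over WT with its 95% interval for the 42 tested members, called members in red and the others in grey, with the 1.5-fold threshold dotted and the median of all tested genes (0.01) dashed. Points run from 0.00 for *Hnrnpul2* to 1.32 for *Snrpert*, and all 8 red intervals lie above 0.

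Altogether 34 tested members were not called. Of these 6 had an adjusted p under 0.05 with a fold change under the threshold, and 3 (*Srsf2*, *Srsf6* and *Snrpert*) had the reverse. The unadjusted 95% interval lay above 0 in 20 of the 34 and spanned 0 in 14. In 8 of those 14 the upper bound was under the fold threshold, so for them a change of that size was outside the interval.

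**Figure D4:**
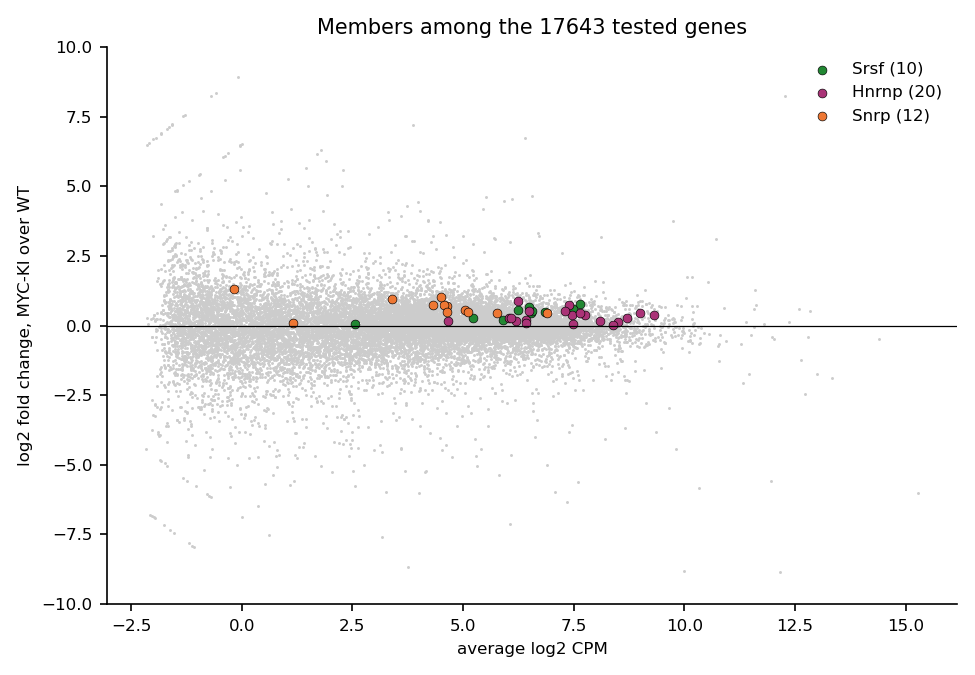
Log2 fold change of MYC-KI over WT against average log2 CPM for the 17643 tested genes in grey, with *Srsf*, *Hnrnp* and *Snrp* members in colour, and 2 tested genes beyond the axis limit of 10 not shown. The members sit in a narrow band between 0.00 and 1.32 while the grey cloud spreads to both sides of 0.

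Splicing genes with other names were read from lists of partner proteins. Of 139 tested genes in 8 lists 13 were called higher and 0 lower, against 5.65% and 5.08% of all tested genes, and against 8.22% higher where the mean log2 CPM reached 4 or more. The share called is near that background. A log2 fold change above 0 was found in 116 of them, against 50.9% of all tested genes, with a median of 0.34. The list for assembly of the Sm ring held 5 of the 13 among 16 tested genes, with a median of 0.47. U5 and U4/U6 snRNP proteins held 3 of 17, U1 and U2 proteins outside the *Snrp* names 2 of 18, and hnRNP-type regulators 3 of 35. No gene was called in either direction among 8 LSm proteins, 17 Prp19 complex proteins and helicases, 8 minor spliceosome proteins and 20 SR kinases and SR-related proteins. At an adjusted p under 0.05 alone these 4 lists held 1, 1, 0 and 3 higher genes. The LSm list had the highest median, at 0.59.

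*Prmt5*, the arginine methyltransferase that modifies Sm proteins before ring assembly, had 34.9 and 36.7 CPM in WT and 68.6 and 71.8 CPM in MYC-KI. The increase was 0.97 on the log2 scale (SE 0.08, adjusted p = 0.0180). *Wdr77*, which encodes its obligate partner MEP50, had 40.5 and 39.6 CPM in WT and 91.6 and 75.3 CPM in MYC-KI (log2 fold change 1.06, SE 0.12, adjusted p = 0.0224). *Clns1a*, for the chaperone pICln that presents Sm proteins to PRMT5, had 50.9 and 44.7 CPM in WT and 88.0 and 82.1 CPM in MYC-KI (log2 fold change 0.83, SE 0.10, adjusted p = 0.0236). These 3 genes were thus called higher, as were 5.65% of all tested genes, and did not overlap between genotypes, where 33.3% of all tested genes lay higher in this way. *Riok1*, for another PRMT5 partner and named after its values were seen, was not called (log2 fold change 0.48, SE 0.14, adjusted p = 0.0984). *Gemin6*, of the SMN complex that loads the ring onto RNA, had 4.08 and 3.44 CPM in WT and 9.79 and 9.16 CPM in MYC-KI. With a log2 fold change of 1.33 (SE 0.21, adjusted p = 0.0344), it had the largest change among the called genes of these lists.

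Among core snRNP proteins, *Prpf31* and *Prpf4* of the U4/U6 particle had log2 fold changes of 0.89 (SE 0.09, adjusted p = 0.0204) and 0.79 (SE 0.12, adjusted p = 0.0329). *Luc7l3*, a U1-associated protein gene, had 0.77 (SE 0.10, adjusted p = 0.0255), and *Sf3b3*, of the U2 particle, 0.69 (SE 0.09, adjusted p = 0.0263). In the hnRNP-type list *Tia1*, which aids weak splice sites, had 0.67 (SE 0.14, adjusted p = 0.0494), and *Khsrp*, a binder of AU-rich RNA, had 0.60 (SE 0.08, adjusted p = 0.0290). *Ptbp1*, the polypyrimidine tract repressor, had 255 and 275 CPM in WT and 415 and 369 CPM in MYC-KI. Its log2 fold change of 0.56 (SE 0.10, adjusted p = 0.0423) was just under the fold threshold. The SR protein kinases did not pass, with -0.33 (SE 0.31, adjusted p = 0.504) for *Srpk1* and 0.51 (SE 0.14, adjusted p = 0.0883) for *Clk1*.

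**Figure D5:**
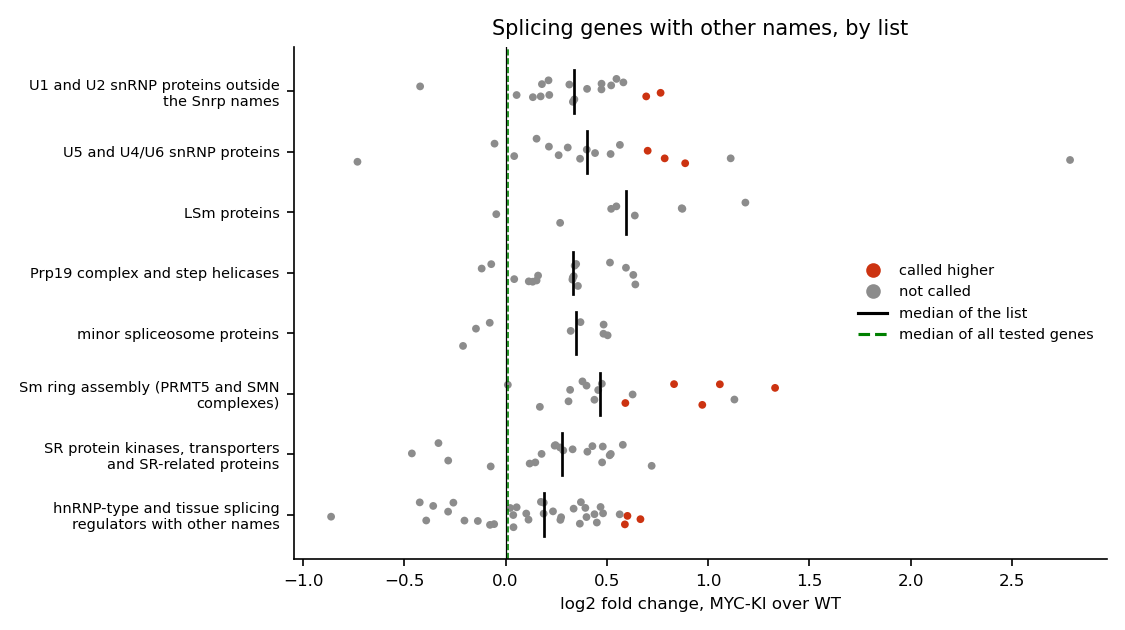
Log2 fold change of MYC-KI over WT for the tested genes of the 8 partner lists, with 1 point per gene, called genes in red, the median of each list as a black line and the median of all tested genes (0.01) dashed. The 13 red points fall in 4 lists, 5 of them in the list for Sm ring assembly.

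Transcript levels of several cell type markers differed strongly between genotypes. All 8 parietal cell markers were called lower, with a median log2 fold change of -3.73 and a summed level of 11329 and 11460 CPM in WT against 443 and 489 CPM in MYC-KI. Of 5 tested chief cell markers 4 were lower, with sums of 84853 and 80511 CPM in WT and 1198 and 1518 CPM in MYC-KI, and *Lipf* was at 0 in every sample. Of 6 surface and neck mucous markers 4 were called lower, namely *Muc5ac*, *Tff1*, *Gkn1* and *Gkn2*. The neck markers *Muc6* (log2 fold change 0.13) and *Tff2* (0.53) were not called. The list summed to 54752 and 65755 CPM in WT and to 30672 and 25860 CPM in MYC-KI. In bulk tissue, fewer cells of a type and less RNA per cell cannot be told apart. Leukocyte markers were lower in 3 of 6 and pancreatic acinar markers in 3 of 4 tested, with *Cpa1* and *Prss2* at 0 in every sample.

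Some cycling cell markers were also higher in MYC-KI. Of 8, 3 were called higher and 0 lower, with a median log2 fold change of 0.80 and sums of 347 and 328 CPM in WT against 553 and 466 CPM in MYC-KI. As in the *Srsf* rows, MYC-KI replicate 1 was the higher of its genotype. Squamous and smooth muscle markers had no calls in either direction. Squamous markers summed to 2633 and 1503 CPM in WT and to 871 and 4387 CPM in MYC-KI. Smooth muscle markers summed to 7640 and 4827 CPM in WT and to 2480 and 5270 CPM in MYC-KI. In both lists the samples of either genotype stand apart from each other. The part of cell make-up in the splicing factor differences was not tested.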

How the data were processed

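The authors deposited raw read counts per gene symbol for 4 stomach samples, 2 of each genotype, in 1 table. The submitters' processing notes name HISAT2 and mm10. The counter, annotation and strand setting are not given in the sources used here. Counts of both MYC-KI columns were assigned in row order to the names sorted by character code, using no count value. The quasi-likelihood test of edgeR 4.0.16 (R 4.3.3) compared the genotypes after TMM scaling and filterByExpr, without covariates, and p-values were adjusted by Benjamini-Hochberg over all tested genes. Each SE was taken from the fold change and its F value, and intervals cover 95%. Replicates differed by more than counting noise (chi-square per degree of freedom 28.9 in WT and 97.9 in MYC-KI). Places and exon lengths come from GENCODE M21. Named genes are called members, the 3 of each family with the highest CPM, and members with at most 3 counts throughout a genotype. The 2 largest calls of each partner list and 6 fixed partners were also named. Other genes with values were named after these were seen. Members and lists were chosen with earlier results of these data known. The test was checked on simulated counts with larger changes than those of the called members and a common dispersion for all genes. That setting does not check it at the smaller changes of the members. Alternatives were DESeq2 1.42.0, other scalings, filters and thresholds, the replicate number as a block, pseudogene rows, the table as deposited, and leaving out each sample. Intervals and floors cover counting error only where they rest on single counts.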

Additional observations from a re-analysis of the deposited data

How the results depend on the processing

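Of the 42 tested members, 8 were called in the main setting, and between 7 and 10 with DESeq2 size factors, the DESeq2 Wald test, dropping the filter, a minimum of 10 counts per sample, or pseudogene rows added. Library size without scaling factors called 24 members, 51 partner genes (main 13) and 3011 genes in all (main 1892). Without a fold threshold these were 14, 31 and 2274, and above a log2 fold change of 1 they were 1, 2 and 1113. The DESeq2 Wald test called 3232 genes in all.

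Deviations of same-numbered samples correlated at 0.0639 across genes. The labels do not say what the replicate numbers share, and a single pair of differences cannot settle whether they pair the samples. With the replicate block 0 members, 0 partner genes and 114 genes were called, with 26 members at an unadjusted p under 0.05. Leaving out 1 sample gave 0 to 13 members, 0 to 19 partner genes and 0 to 2470 genes, with the lone sample of a genotype assumed to vary like the other genotype.

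In the table as deposited, with names and MYC-KI counts out of register, 32 members (12 higher, 20 lower), 117 partner genes and 18580 genes were called. The log2 fold changes of these rows then changed sign: *Hnrnpa0* -0.30, *Hnrnpa1* -10.80, *Hnrnpa2b1* -2.79, *Hnrnpab* -0.85, *Hnrnpc* -0.71, *Hnrnpf* -0.40, *Hnrnph1* -0.51, *Hnrnph2* -1.58, *Hnrnpk* -0.44, *Hnrnpl* -1.34, *Hnrnpm* -1.13, *Hnrnpu* -1.20, *Hnrnpul2* -8.58, *Snrpa* -0.91, *Snrpa1* -0.55, *Snrpb* -0.51, *Snrpc* -0.0008, *Snrpd1* -1.06, *Snrpf* -11.99, *Srsf1* -4.22, *Srsf2* -15.32, *Srsf3* -14.04, *Srsf4* -13.89, *Srsf5* -14.69, *Srsf6* -15.25, *Srsf7* -14.22, *Srsf9* -13.17, *Srsf10* -12.19, *Srsf11* -14.36, *Luc7l3* -4.22, *Sf3b3* -1.61, *Wdr77* -2.83, *Tia1* -1.11, *Prmt5* -7.10, *Clns1a* -0.65, *Ptbp1* -1.89 and *Myc* 2.38. Elsewhere only rows near 0 changed sign. *Hnrnpul2* was at -0.0098 with DESeq2 size factors and -0.006 with the DESeq2 Wald test. On leaving out 1 sample, *Hnrnpd* ranged from -0.17 to 0.48, *Hnrnpul1* from -0.020 to 0.094, *Hnrnpul2* from -0.018 to 0.028, *Snrpc* from -0.033 to 0.21 and *Srsf1* from -0.089 to 0.16.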

Other observations

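*Snrnp40*, a U5 snRNP protein gene chosen after its values were seen, had 28 and 20 counts in WT, 345 in MYC-KI replicate 1 and 28 in MYC-KI replicate 2. Its log2 fold change of 2.79 (SE 1.34, adjusted p = 0.226) was the largest of the partner lists and came from 1 sample.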
